A study of Mus musculus with 20 samples.

Results

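The 10 genes described here encode the G1 machinery of the cell cycle: the D cyclins Ccnd1, Ccnd2 and Ccnd3, the E cyclins Ccne1 and Ccne2, the kinases Cdk4 and Cdk6, the transcription factor E2f1, the retinoblastoma gene Rb1, and Myc. They were chosen by name, and each symbol matched 1 identifier of the 46603 in the count files through the GENCODE M21 annotation. All 10 were among the 14661 genes with enough counts to be tested. The libraries were polyA RNA-seq of whole mouse liver, 20 in all, from 2-month-old males. Wild-type (WT) mice were C57BL/6J animals purchased from a supplier. EedHepKO mice, called KO here, carried loxP sites around exons 3 and 6 of Eed and a Cre transgene under the albumin promoter, Alb:Cre, which acts in hepatocytes. Eed encodes a core subunit of PRC2, the complex that methylates histone H3 at lysine 27, and the labels state that the cross leaves hepatocytes without working EED. No group of floxed mice without Cre, or of Cre mice without the floxed allele, was analysed here. Each mouse had a partial hepatectomy (PHx). Lobes 1, 2 and 3, removed at surgery, gave the baseline sample, and lobes 4, 5 and 6 gave the sample after PHx, so stage and lobe cannot be told apart. Each genotype had 5 samples at baseline and 5 after PHx, of which 1 was taken at 30 h, 2 at 40 h and 2 at 48 h.

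Levels are given as CPM, counts per 1000000 counts of a library total scaled by the trimmed mean of M values (TMM). Eed itself stood at 15.3 to 18.4 CPM in WT and 3.83 to 7.52 in KO at baseline, and at 14.6 to 23.2 in WT and 2.75 to 5.82 in KO after PHx. Genotypes did not overlap at either stage. The libraries held 21634890 to 30461351 counts. A gene was called when its adjusted p in edgeR's quasi-likelihood test was under 0.05. In whole tissue, a change in the number of cells of a type and a change in RNA per cell cannot be told apart. Eed was not measured by cell type, so how far cells other than hepatocytes keep it in the KO cannot be read here. Summed hepatocyte markers reached 113000 to 133000 CPM in WT and 71900 to 96600 in KO at baseline.

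As background, a resting cell enters the cycle when growth signals raise D cyclins, which bind CDK4 or CDK6. These complexes phosphorylate RB, the product of Rb1, which otherwise holds E2F factors inactive at their target genes. Released E2F drives the E cyclins and the genes of DNA synthesis, and cyclin E with CDK2 phosphorylates RB further. MYC, a transcription factor induced early after growth signals, acts on genes of ribosome and nucleotide synthesis. Adult hepatocytes are quiescent and re-enter the cycle after partial hepatectomy, and induction of cyclin D1 is a known part of that step.

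Promoter sequence is shown for Cdk4, the member whose window held the most E-boxes, and for Ccne1, the member with the largest fitted change after PHx in both genotypes. The RefSeq promoter table for GRCm38.p6 held windows, from 250 bases before to 50 after a gene's start, for 5 of the 10 genes: Ccnd3 (2 starts), Ccne1, Cdk4, Cdk6 and E2f1. Ccnd1, Ccnd2, Ccne2, Rb1 and Myc had none. Both strands were searched for the E-box CACGTG, the core site that MYC with MAX binds, and for 4 forms of the E2F site, TTTGGCGC, TTTCCCGC, TTTGCCGC and TTTCGCGC. The first line lies at chr10:127063285-127063584 on the plus strand, with its E-boxes in capitals, and the second at chr7:38107441-38107740 on the minus strand, with no match to any of these motifs.
Cdk4: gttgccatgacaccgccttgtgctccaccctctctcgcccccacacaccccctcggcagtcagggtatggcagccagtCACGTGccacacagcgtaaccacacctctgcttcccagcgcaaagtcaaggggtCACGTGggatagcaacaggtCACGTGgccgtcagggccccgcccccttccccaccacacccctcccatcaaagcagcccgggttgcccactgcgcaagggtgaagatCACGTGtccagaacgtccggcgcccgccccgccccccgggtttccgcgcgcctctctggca
Ccne1: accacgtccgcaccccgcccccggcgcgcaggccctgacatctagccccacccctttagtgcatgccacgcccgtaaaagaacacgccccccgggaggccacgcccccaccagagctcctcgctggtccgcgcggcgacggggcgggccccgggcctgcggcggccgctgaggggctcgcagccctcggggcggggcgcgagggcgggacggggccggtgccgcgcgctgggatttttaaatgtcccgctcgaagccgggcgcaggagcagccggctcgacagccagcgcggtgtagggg
The Cdk4 window holds 4 E-boxes, at -172, -118, -98 and -11 from the start, and the Cdk6 window holds 1, at -220. At least 1 E-box occurs in 7.15% of the 32851 windows of this length in the table, and at least 4 in 8 windows, or 0.0244%. An E2F form occurs in 2.26% of all windows and in none of the 6 windows of these genes. Starts lay inside the annotated gene by 1 base from its 5′ end for Cdk4 and by 44 for Ccne1. The distance was 466 bases for E2f1, 2408 for Cdk6 and 88416 for the second start of Ccnd3, so these 3 windows need not be the main promoters. A match is a description of letters, and no match says only that these letters are not in the window.

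At baseline, with no surgery, Ccnd1, Ccnd2 and Myc were higher in KO than in WT liver, and the other members were not called. Called members were 3 of 10, all higher, against 16% of all genes called in either direction. The members' median log2 fold change was 0.58, against -0.03 over all genes tested. Ccnd1 (ENSMUSG00000070348, chr7:144929931-144939925, minus strand) encodes cyclin D1. It stood at 17.5, 21.6, 22.1, 23.6 and 29.9 CPM in the 5 WT livers and at 123, 164, 206, 258 and 327 CPM in the 5 KO livers. Every KO value lay above every WT value. The fold change was 9.41, or 3.23 ± 0.77 on the log2 scale (SE; 95% interval 1.63 to 4.84; adjusted p = 0.00701), and it was called under every alternative run.

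Ccnd2 (ENSMUSG00000000184, chr6:127125162-127152193, minus strand), cyclin D2, stood between 7.57 and 9.03 CPM in WT and at 20.0, 20.2, 27.1, 30.4 and 34.02 CPM in KO at baseline. The WT livers were within 1.19-fold of each other, and no KO liver came down to their range. The fold change was 3.09 (log2 1.63 ± 0.47, SE; adjusted p = 0.0227), with adjusted p = 0.0537 without WT replicate 5 and 0.0508 without KO mouse 11. Myc (ENSMUSG00000022346, chr15:61985391-61990374, plus strand) stood at 2.84, 3.77, 5.35, 6.42 and 7.0 CPM in WT and at 10.99, 16.8, 20.4, 21.6 and 47.7 CPM in KO. The groups did not overlap, and KO mouse 11 held the top value. The fold change was 4.62 (log2 2.21 ± 0.65, SE; adjusted p = 0.0245). Leaving out WT replicate 1, 3 or 5 or KO mouse 11 ended this call, at adjusted p = 0.0569, 0.0517, 0.0639 and 0.0758.

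E2f1 (ENSMUSG00000027490, chr2:154559407-154569892, minus strand), the founding member of the E2F family, stood at 2.68 to 3.44 CPM in the 5 WT livers and at 4.10 to 5.57 in the 5 KO livers at baseline. The groups did not overlap, yet the gene was not called in the fit over all 20 samples (log2 0.75 ± 1.00, SE; adjusted p = 0.654). That fit shares 1 spread per gene over all groups, and E2f1 ranged from 0.261 to 55.3 CPM after PHx. Fitted on the 10 baseline samples alone, the log2 fold change of 0.76 was called (adjusted p = 0.00304), as was that of Cdk6 (0.42, adjusted p = 0.0226). In all, 4 members lay wholly above WT at baseline, Ccnd1, Ccnd2, E2f1 and Myc, and none below. The groups were apart, in either direction, for 27.9% of all genes tested.

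The remaining members had baseline log2 differences with intervals that held 0 or nearly so. Cyclin D3, from Ccnd3 (ENSMUSG00000034165, chr17:47505051-47599691, plus strand), averaged 31.5 ± 1.48 CPM in WT and 32.1 ± 7.26 in KO (SD, n = 5; log2 0.03, 95% interval -0.53 to 0.58). Cdk4 (ENSMUSG00000006728, chr10:127063534-127067920, plus strand) averaged 30.3 ± 2.63 and 30.8 ± 3.38 CPM (log2 0.03, interval -0.36 to 0.41). Rb1 (ENSMUSG00000022105, chr14:73183673-73325822, minus strand) averaged 9.50 ± 1.97 and 7.93 ± 2.31 CPM (log2 -0.26, interval -0.74 to 0.22). These intervals leave out differences as large as those of Ccnd1 or Myc. Cdk6 (ENSMUSG00000040274, chr5:3341485-3531008, plus strand) averaged 23.7 ± 3.49 CPM in WT and 31.7 ± 4.84 in KO, with overlapping samples (log2 0.42, interval 0.01 to 0.83; adjusted p = 0.158).

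The E cyclins were near the floor of detection before surgery. Ccne1 (ENSMUSG00000002068, chr7:38097984-38107534, minus strand) had 3 to 12 counts per WT library and 10 to 30 per KO library, and Ccne2 (ENSMUSG00000028212, chr4:11191351-11204779, plus strand) had 5 to 21 and 6 to 52. Neither was called between genotypes. The log2 difference was 1.12 for Ccne1 (95% interval -0.22 to 2.47) and 0.31 for Ccne2 (-1.47 to 2.09) and both intervals hold differences of several fold.

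**Figure D1:**
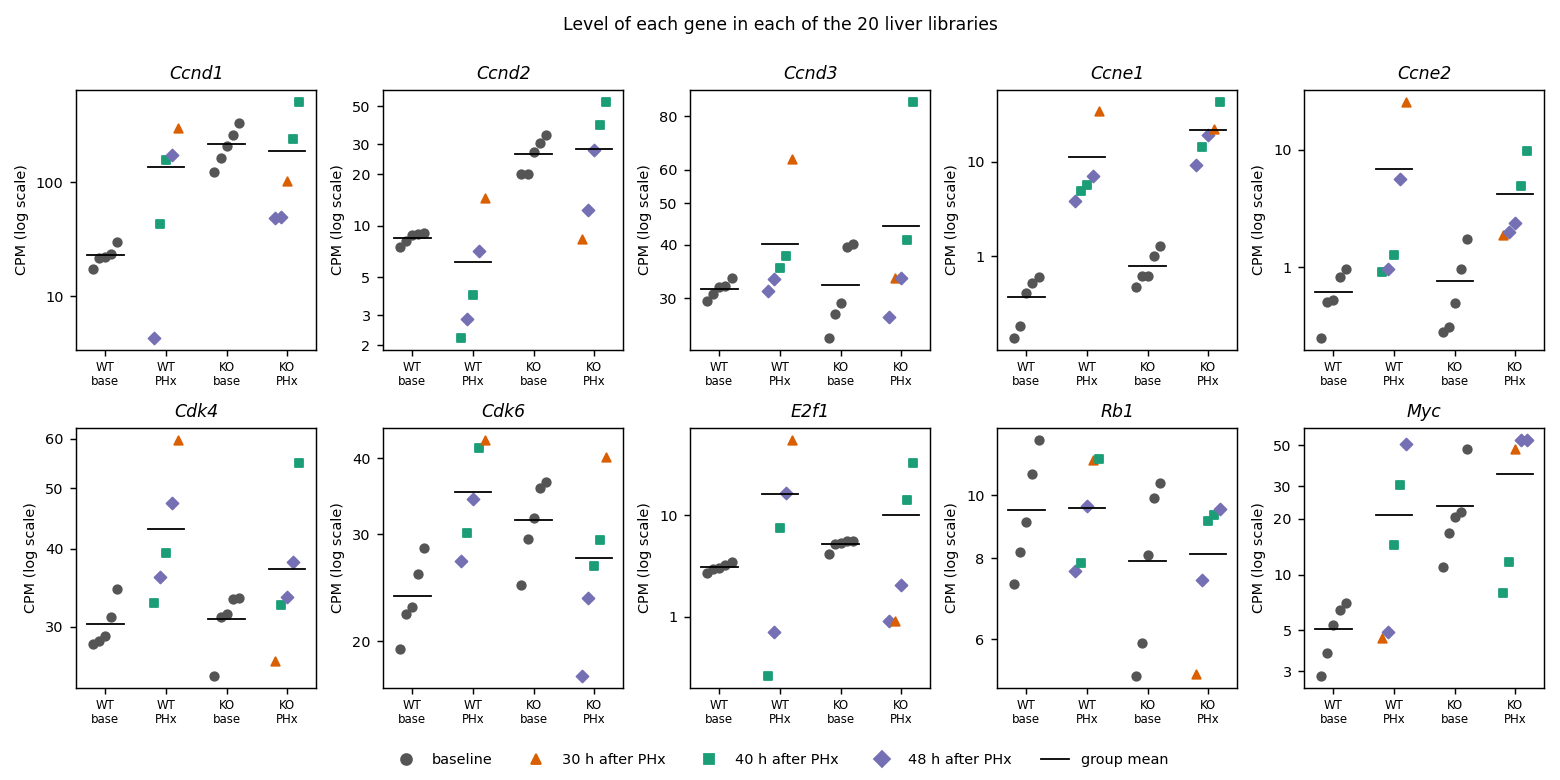
CPM (y axis, log scale) of the 10 genes in the 20 libraries, by group (WT and KO at baseline and after PHx, x axis); each point is a library, its shape and colour the time after PHx, and the bar the group mean. Baseline points of Ccnd1, Ccnd2, E2f1 and Myc separate by genotype, and points after PHx spread widely, from 4.32 to 298 CPM for Ccnd1 in WT.

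Levels per kilobase use the length of all annotated exons of a gene, 4709 bases for Ccnd1, 9409 for Ccnd2 and 8775 for Ccnd3. The transcripts present may be shorter, so shares of different genes depend on these lengths. By CPM alone, Ccnd3 averaged more than Ccnd1 in WT at baseline (31.5 against 22.9). Ccnd1 was 51.6% ± 4.52 (SD, n = 5) of the summed D cyclin CPM per kilobase in WT liver at baseline. In KO liver it was 86.8% ± 3.37. Ccnd3 made up 38.7% ± 3.75 in WT and 7.38% ± 1.93 in KO, and Ccnd2 9.74% ± 0.827 and 5.78% ± 1.81. The Ccnd1 share ran from 46.0% to 58.0% in WT and from 83.3% to 91.3% in KO, without overlap. Ccnd2 was thus higher in level yet made up less of the KO sum. Cdk4 was 84.6% ± 2.09 of Cdk4 plus Cdk6 per kilobase in WT and 80.7% ± 2.97 in KO at baseline.

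**Figure D2:**
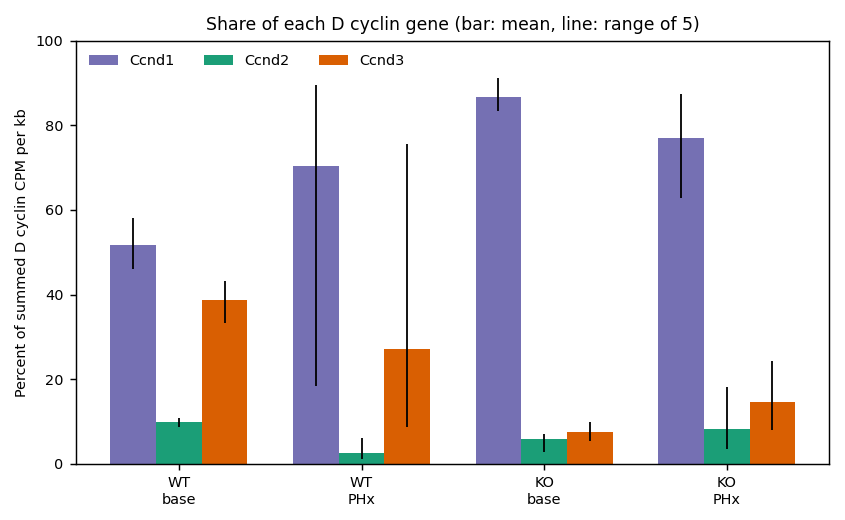
Share of each D cyclin gene in the summed D cyclin CPM per kilobase (y axis, percent) in each group (x axis); bars are means of 5 libraries and lines run from the lowest to the highest library. Ccnd1 makes up 83.3% to 91.3% in KO at baseline and 18.3% to 89.6% in WT after PHx.

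Of 7 CDK inhibitor genes, which brake the kinases of these cyclins, 4 were higher in KO at baseline and none lower. Of all genes, 16% were called in either direction. The median log2 was 2.35 over the 7, against -0.03 over all genes. Cdkn2a, which encodes p16INK4A and p19ARF and is a classical PRC2 target, averaged 0.0375 CPM in WT and 7.44 in KO (adjusted p = 3.1e-06). Cdkn2b, p15INK4B, averaged 0.226 and 2.96 CPM (adjusted p = 0.00204). Cdkn1a, p21, averaged 11.8 and 64.8 CPM (adjusted p = 0.0042), and Cdkn1c, p57, averaged 0.868 and 4.44 CPM (adjusted p = 0.00846). Cdkn1b, Cdkn2c and Cdkn2d were not called.

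Genes that E2F and MYC are known to act on were mostly not called between genotypes before surgery. Of 26 E2F target genes, 1 was higher in KO at baseline, Mybl2 (log2 1.78, adjusted p = 0.0467), against 16% of all genes called in either direction. The median log2 fold change was 1.17. Leaving out 1 baseline library at a time ended the Mybl2 call in 8 of 10 fits. Fitted on the 10 baseline samples alone, 16 of the 26 were called, and so were 39.3% of all genes. Of 18 MYC target genes, 2 were lower, Pa2g4 (log2 -0.51) and Hspd1 (log2 -0.61), and none higher (median -0.46), against 16% of all genes. The count was 10 of 18 when the 10 baseline samples were fitted alone, against the same 39.3%, and 0 without KO mouse 7, where 11.2% of all genes were called. Among 9 other genes of the RB and E2F families, Rbl2 alone was called, against 16% of all genes. Rbl2, which encodes p130, was lower (log2 -0.47, adjusted p = 0.0458), and it was lost in 8 of the 10 leave-one-out fits.

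Markers of other cells also stood apart at baseline, and their part in the results for Ccnd1, Ccnd2 and Myc was not tested. The counts of markers called stand beside 16% of all genes called in either direction. The 7 macrophage markers summed to 99.2 to 169 CPM in WT and 227 to 291 in KO, with 2 of 7 called higher, Cd68 and Csf1r. The 7 stellate cell markers summed to 156 to 245 and 385 to 407 CPM, with 3 of 7 called higher. The 6 endothelial markers summed to 149 to 177 and 183 to 216 CPM, with 1 of 6 called higher. Cholangiocyte markers overlapped, at 34.1 to 79.1 and 73.8 to 384 CPM, with 1 of 7 called, and lymphocyte markers overlapped at 5.76 to 8.52 and 7.23 to 24.9 CPM, with 1 of 6 called. Neutrophil markers reached 0.826 CPM at most in WT and 6.90 in KO, with Ly6g at 0 in both. The 6 proliferation markers summed to 1.24 to 3.58 and 10 to 79.3 CPM, without overlap. Of these, Plk1 (adjusted p = 0.0357) and Ccnb1 (adjusted p = 0.0474) were called higher in KO. The 4 erythroid markers went the other way without overlap, at 185 to 258 CPM in WT and 64.4 to 116 in KO, with 1 of 3 tested called lower, Alas2.

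After PHx in WT liver, Ccne1, Ccne2, Ccnd1, Myc and Cdk6 were higher than at baseline. These were 5 of 10 members, against 20.1% of all genes called in either direction (median log2 1.31, against 0.04 over all genes). Ccne1 moved from 0.138, 0.183, 0.412, 0.521 and 0.60 CPM at baseline to 3.83, 4.95, 5.70, 7.04 and 33.97 CPM. Its groups did not overlap, which held for no other member in WT and for 17.8% of all genes. The fold change was 30.1 (log2 4.91 ± 0.67, SE; adjusted p = 9.55e-05) and was called in every alternative. Ccne2 stood at 0.25 to 0.963 CPM at baseline and at 0.913, 0.957, 1.26, 5.67 and 25.6 CPM after PHx. Only the last 3 exceeded all baseline livers (log2 3.48 ± 0.89, SE; adjusted p = 0.0103), and without the 30 h liver the adjusted p was 0.0627.

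Ccnd1 in WT after PHx stood at 4.32, 42.7, 156, 175 and 298 CPM, against 17.5 to 29.9 at baseline. One 48 h liver, of mouse 4, lay below all baseline livers and the others above them. The fold change was 5.90 (log2 2.56 ± 0.75, SE; adjusted p = 0.0206), with adjusted p = 0.0548 without the 30 h liver. Myc stood at 4.53, 4.88, 14.4, 30.5 and 50.8 CPM after PHx, so that 3 of 5 livers exceeded all 5 at baseline (log2 2.05 ± 0.64, SE; adjusted p = 0.0301). That call was lost in 6 of the 10 fits that left out 1 of these libraries, at adjusted p = 0.05 to 0.107. Cdk6, the partner of D cyclins beside Cdk4, stood at 27.1 to 42.9 CPM against 19.4 to 28.5 (log2 0.57 ± 0.20, SE; adjusted p = 0.0469), a call lost in 7 of 10 such fits, at adjusted p = 0.0615 to 0.111.

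Most of these calls did not hold in the comparison within mice. Of the WT mice, 4 had a mouse number in both titles, since WT baseline replicate 1 carried none, and with the mouse as a block only Ccne1 was called (log2 4.08, adjusted p = 0.00216). The block gave log2 1.19 for Ccnd1 (adjusted p = 0.413), 1.84 for Myc (0.0902), 1.43 for Ccne2 (0.278) and 0.41 for Cdk6 (0.172). The same 18 libraries without the mouse term gave 2 calls, Ccne1 and Myc. Within single mice, Ccne1, Ccnd3, Cdk4, Cdk6 and Myc were higher after PHx in 4 of 4 WT mice, Ccnd1 and Ccne2 in 3, E2f1 and Rb1 in 2, and Ccnd2 in 0. The log2 ratio within mice ran from 3.25 to 5.68 for Ccne1, from 0.78 to 2.98 for Myc and from 0.08 to 0.69 for Cdk6. That of Ccnd2 ran from -2.02 to -0.08. Ccnd2 was not called in the full fit, at 2.22 to 14.5 CPM after PHx, and without both 30 h libraries it was lower (log2 -1.08, adjusted p = 0.0386).

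The other members in WT were not called, with log2 differences of 2.39 for E2f1 (95% interval 0.22 to 4.56; adjusted p = 0.109), 0.51 for Cdk4 (0.12 to 0.90; 0.0596), 0.35 for Ccnd3 (-0.21 to 0.90) and 0.01 for Rb1 (-0.47 to 0.49). E2f1 stood at 0.261, 0.709, 7.53, 16.5 and 55.3 CPM after PHx. Both the lowest livers lay under the baseline range of 2.68 to 3.44 CPM and the other three above it. Cdk4 was called with DESeq2, with library size alone, with WT samples alone, and without WT mouse 3 or 5 after PHx.

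Markers of other cells moved with stage in WT, and their part in these results was not tested. The counts of markers called stand beside 20.1% of all genes called in either direction. The 4 neutrophil markers summed to 0.463 to 0.826 CPM at baseline and 1.34 to 41.7 after PHx, with 3 of 3 tested called higher. The 6 lymphocyte markers summed to 5.76 to 8.52 and 1.10 to 5.71 CPM, with 2 of 4 tested called lower, and the 6 endothelial markers to 149 to 177 and 75.8 to 142 CPM, with 1 of 6 called lower. None of these 3 sums overlapped between the stages. Hepatocyte markers summed to 113000 to 133000 and 65600 to 114000 CPM, with 1 of 6 called lower.

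In KO liver, Ccne1 and Ccne2 were higher after PHx, and no other member was called. These were 2 of 10, against 29.5% of all genes called in either direction (median log2 0.37, against 0.10 over all genes). Ccne1 moved from 0.470 to 1.27 CPM at baseline to 9.22, 14.3, 18.97, 22.3 and 42.7 CPM (fold change 26.8; log2 4.75 ± 0.64, SE; adjusted p = 0.000259). Ccne2 moved from 0.282 to 1.73 CPM to 1.89, 1.98, 2.40, 4.89 and 9.76 CPM (log2 2.45 ± 0.85, SE; adjusted p = 0.0359). For both, every liver after PHx lay above every baseline liver, as in 13.9% of all genes in either direction. The Ccne2 call was lost in 6 of 10 leave-one-out fits, at adjusted p = 0.0525 to 0.0828, and both calls held with the mouse as a block. Both genes were higher after PHx in 5 of 5 KO mice. In KO, neutrophil markers summed to 1.60 to 6.90 CPM at baseline and 2.81 to 66.8 after PHx, and endothelial markers to 183 to 216 and 93.0 to 164 CPM, and their part was not tested.

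Ccnd1 in KO stood at 48.2, 50.0, 102, 237 and 506 CPM after PHx, around the 123 to 327 CPM of baseline (log2 -0.19, 95% interval -1.67 to 1.28). It was higher after PHx in 2 of 5 mice, both taken at 40 h, and lower in the others. Myc was higher within 3 of 5 mice and lower in those taken at 40 h, from 20.4 to 7.93 CPM in mouse 10 and from 47.7 to 11.7 in mouse 11. Cdk6 was lower after PHx in 4 of 5 KO mice, with log2 ratios of -0.49 to 0.17. Ccnd2, Ccnd3, Cdk4, E2f1 and Rb1 were each higher in 2 or 3 of 5 mice.

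**Figure D3:**
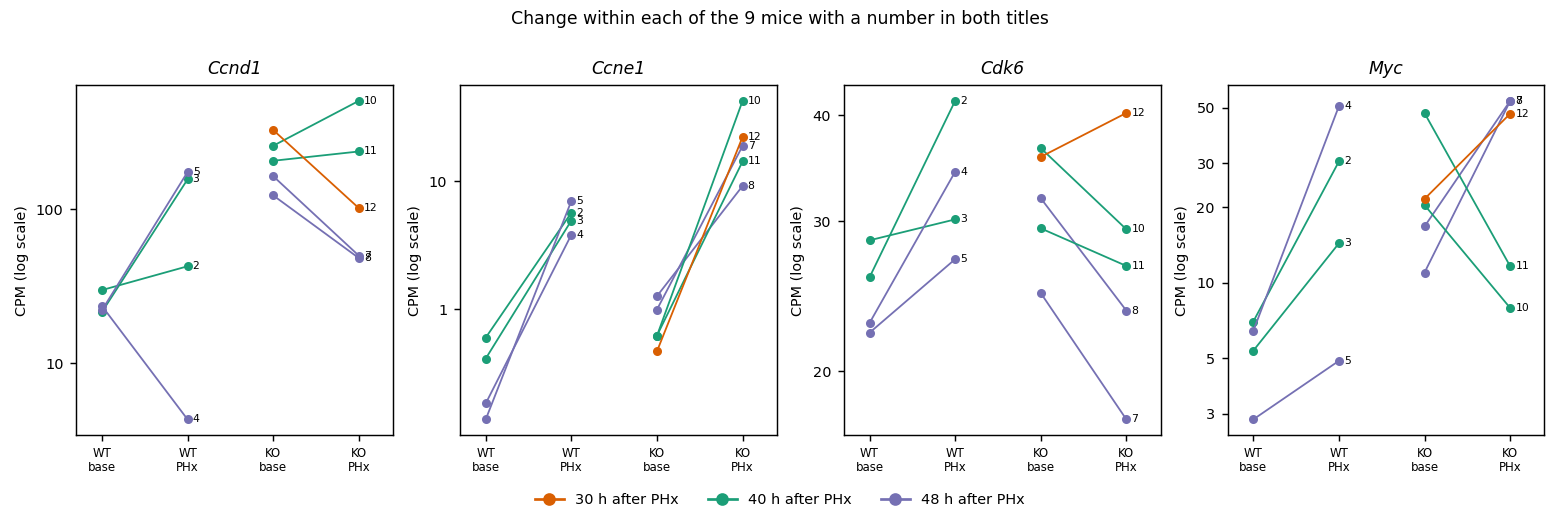
CPM (y axis, log scale) of Ccnd1, Ccne1, Cdk6 and Myc at baseline and after PHx (x axis) in the 9 mice with a number in both titles, 4 WT and 5 KO; each line is a mouse, coloured by the time after PHx, with its number at the right end. Ccne1 is higher after PHx in all 9 mice, while Ccnd1 and Myc move both ways among KO mice.

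The difference between the PHx responses of the genotypes was called for 0 of 10 members by edgeR's test, against 0.389% of all genes. At an unadjusted p under 0.05, 2 members passed, Cdk6 and Ccnd1, as did 13.3% of all genes, and DESeq2 called 0 members and 2.49% of all genes. The log2 response of Ccnd1 was 2.56 in WT and -0.19 in KO, a difference of -2.75 ± 1.02 (SE; 95% interval -4.88 to -0.63; adjusted p = 0.236). Without KO mouse 10 after PHx, this difference was -3.54 (adjusted p = 0.0436). For Cdk6 the difference was -0.77 ± 0.28 (SE; interval -1.35 to -0.20; adjusted p = 0.224). Ccne1 had similar estimates in both genotypes, with a difference of -0.17 whose interval ran from -1.82 to 1.49.

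**Figure D4:**
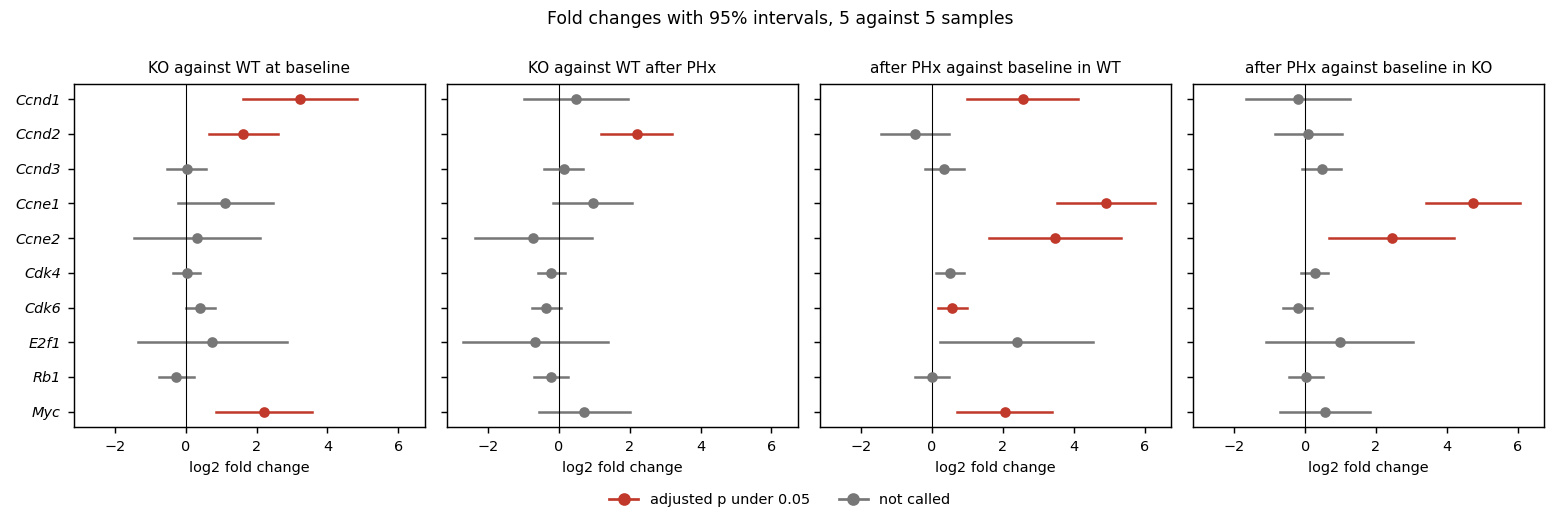
Log2 fold change (x axis) of each member (y axis) in 4 comparisons, each of 5 against 5 samples in edgeR's fit; points are estimates, lines 95% intervals, and red marks an adjusted p under 0.05. Ccnd1, Ccnd2 and Myc are called between genotypes at baseline, Ccnd2 after PHx, and Ccne1 and Ccne2 after PHx in both genotypes.

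Between genotypes after PHx, Ccnd2 was the only member called, higher in KO, or 1 of 10 against 24.2% of all genes in either direction (median log2 -0.04, against -0.01). It stood at 2.22, 2.87, 3.92, 7.14 and 14.5 CPM in WT and at 8.43, 12.3, 27.7, 39.1 and 53.1 CPM in KO. The ranges overlapped through the 30 h livers, which were the highest in WT and the lowest in KO. No member was without overlap here, against 10% of all genes. The fold change was 4.6 (log2 2.20 ± 0.48, SE; adjusted p = 0.00241), and the call held in every alternative. Ccne1 stood at 3.83 to 33.97 CPM in WT and 9.22 to 42.7 in KO (log2 0.96 ± 0.54, SE; adjusted p = 0.206), and without the WT 30 h liver it was called (log2 2.00, adjusted p = 0.00294). Cdk6 was called lower in KO without the KO 30 h liver (log2 -0.54, adjusted p = 0.0401). Cholangiocyte markers summed to 35.2 to 256 CPM in WT and 134 to 595 in KO after PHx, with 4 of 7 called higher, and stellate cell markers to 120 to 222 and 228 to 432, with 2 of 7 called higher. Their part in the Ccnd2 result was not tested.

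Within the 40 h samples, 2 per genotype, Ccnd2, Ccne1 and Ccne2 were higher in KO, or 3 of 10 members against 13.3% of all genes. Ccnd2 stood at 2.22 and 3.92 CPM in WT and at 39.1 and 53.1 in KO (log2 3.90 ± 0.47, SE; adjusted p = 0.000339). Ccne1 stood at 4.95 and 5.70 CPM in WT and 14.3 and 42.7 in KO (log2 2.42; adjusted p = 0.0164), and Ccne2 at 0.913 and 1.26 against 4.89 and 9.76 CPM (log2 2.75; adjusted p = 0.0452). At 40 h and 48 h, a fit that leaves out 1 of 2 livers has a single liver in that arm, and the spread comes from the other groups. Leaving out 1 library lost the Ccne1 call in 3 of 4 fits and the Ccne2 call in 4 of 4, at adjusted p up to 0.122 and 0.200, and kept that of Ccnd2. Within the 48 h samples Ccnd2 was again the only member called, or 1 of 10 against 24.3% of all genes, at 2.87 and 7.14 CPM in WT and 12.3 and 27.7 in KO (log2 2.00; adjusted p = 0.00444). Without KO mouse 8 its adjusted p was 0.0750. Without WT mouse 4, Myc (log2 3.35), E2f1 (-3.58) and Ccnd1 (-1.93, adjusted p = 0.0228) were called as well at 48 h. Without WT mouse 5, Ccnd1 was called in the other direction, higher in KO (log2 3.43, adjusted p = 0.00866), as WT mice 4 and 5 stood at 4.32 and 175 CPM. Each call without WT mouse 4 or 5 compares 1 WT liver with 2 KO livers and so rests on that liver.

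From 40 h to 48 h, no member was called in WT, against 0.0273% of all genes (2 against 2 livers), and none had an unadjusted p under 0.05. Without WT mouse 5, which leaves mouse 4 as the single WT liver at 48 h, Ccnd1 was called lower at 48 h (log2 -4.53, adjusted p = 0.0237). In KO, E2f1 and Ccnd3 were lower at 48 h, or 2 of 10 against 13.1%. E2f1 stood at 14.2 and 32.7 CPM at 40 h and 0.899 and 2.04 at 48 h (log2 -3.98 ± 1.13, SE; adjusted p = 0.0344). Ccnd3 stood at 41.0 and 86.5 CPM at 40 h and 27.1 and 33.5 at 48 h (log2 -1.07; adjusted p = 0.0303). Without KO mouse 7, 8 or 10 neither gene was called (E2f1, adjusted p = 0.209, 0.0692 and 0.142; Ccnd3, 0.106, 0.0941 and 0.344). Ccnd2 was called without KO mouse 8 (log2 -1.96), and 5 members were called without KO mouse 11, with Ccnd1 (-3.45), Ccnd2 (-1.50) and Cdk4 (-0.70) added. The difference between the genotypes in this step was called for 0 of 10 members against 4.72% of all genes. At an unadjusted p under 0.05, 4 members passed, E2f1 (log2 -5.11, adjusted p = 0.0603), Ccnd2 (-1.90, 0.0708), Ccne2 (-3.35, 0.0955) and Ccnd3 (-0.89, 0.199), against 24.4% of all genes. DESeq2 called 3 members, Ccnd2, E2f1 and Ccne2, and 12.4% of all genes. Of the 8 fits that left out a library, 4 called 1 to 5 members, the most without WT mouse 4. The mice at 40 h and 48 h were different animals.

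The livers after PHx differed widely within a genotype and a time. Ordered by E2f1, they ran from WT mouse 2 at 40 h, with 0.261 CPM, to WT mouse 1 at 30 h, with 55.3 CPM. The upper end was held by WT mice 3, 5 and 1 and KO mice 11 and 10, at 7.53 to 55.3 CPM, and the lower end by WT mice 2 and 4 and KO mice 7, 12 and 8, at 0.261 to 2.04 CPM. The 5 livers at the upper end were also the highest 5 in Ccnd1, at 156 to 506 CPM against 4.32 to 102 CPM. The same 5 were the lowest 5 in Myc, at 4.53 to 14.4 CPM, while the others held 30.5 to 53.3 CPM. Of the top 5 in E2f1, 4 were among the top 5 in Ccne2 and in Ccnd3, 3 in Ccne1 and in Ccnd2, and 2 in Cdk4, Cdk6 and Rb1. The split was set by E2f1 in these same libraries, and the share of all genes parted the same way was not counted.

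The upper and lower 5 livers were also apart in proliferation markers, though not in the same order within each 5. The summed level of 6 proliferation markers (Mki67, Top2a, Plk1, Ccnb1, Aurkb and Bub1) was 32.99 to 708 CPM in the 5 livers highest in E2f1 and 0.355 to 20.0 CPM in the others. By group, all 6 were called higher after PHx in WT (log2 5.51 for Top2a to 8.13 for Ccnb1), against 20.1% of all genes. In KO none of the 6 was called after PHx, against 29.5% of all genes. In WT mice 2 and 4 the sum was 0.739 and 0.355 CPM, under the 1.24 to 3.58 CPM of WT liver at baseline. Yet Ccne1 stood at 5.70 and 3.83 CPM and Myc at 30.5 and 50.8 CPM in those 2 livers, above every WT liver at baseline for both genes. In summed E2F target genes the upper and lower 5 were not apart. There WT mouse 3, of the upper 5, stood at 248.5 CPM. KO mice 7, 8 and 12, of the lower 5, stood at 260.7, 305.3 and 313.5 CPM. The 4 neutrophil markers summed to 10.7 to 66.8 CPM in the 5 livers lowest in E2f1, where Myc stood highest, to 41.7 CPM in WT mouse 3 at 40 h, and to 1.34 to 3.62 CPM in the other 4. Their part in the order of Myc was not tested. The order mixes genotypes and times, and is given as a description with no test.

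**Figure D5:**
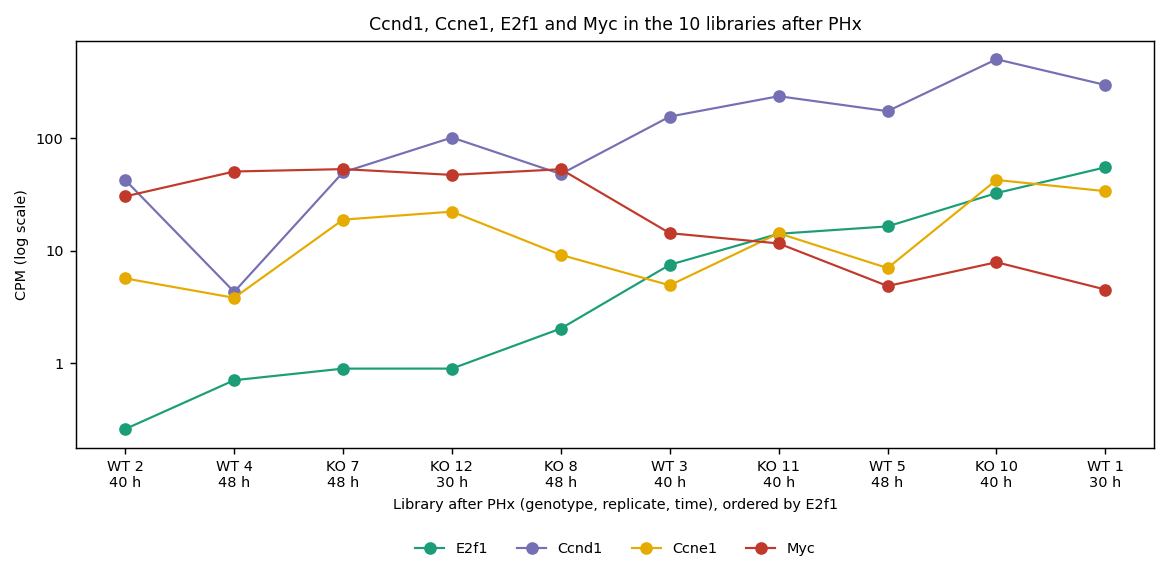
CPM (y axis, log scale) of E2f1, Ccnd1, Ccne1 and Myc in the 10 libraries after PHx, ordered from left to right by E2f1 (x axis, genotype, mouse and time). Myc lies at 30.5 to 53.3 CPM in the 5 libraries on the left and at 4.53 to 14.4 CPM on the right, where Ccnd1 is highest.

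In WT, 21 of 26 E2F target genes were higher after PHx and none lower, against 20.1% of all genes called in either direction (median log2 3.46, against 0.04 over all genes). Examples were Cdc6, which loads the replicative helicase (log2 6.33), Uhrf1, a partner of maintenance DNA methylation (7.13), and Rrm2, a ribonucleotide reductase subunit (4.13). The count was 12 without the WT 30 h liver, where 20.9% of all genes were called, and 3 with the mouse as a block, where 13.5% were. In KO, 6 of 26 were higher, against 29.5% of all genes (median 1.96), among them Rrm2 (log2 3.89) and Brca1 (3.00), and the count was 3 without KO baseline mouse 10, 11 or 12 or without KO mouse 10 after PHx, 10 without KO mouse 12 after PHx, and 15 without both 30 h livers. The difference between these responses was called for none of the 26.

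At 40 h, 16 of the 26 E2F targets were higher in KO than in WT and none lower, against 13.3% of all genes (median log2 3.04), for example Uhrf1 (5.00), Mcm3 (3.23) and Mcm7 (1.97), subunits of the replicative helicase. Without WT mouse 2 the count was 0, and the share of all genes called fell to 1.53%. Without KO mouse 10 the count was 6, against 17.3% of all genes. At 48 h, 2 of the 26 were lower in KO, Mcm5 (log2 -2.67) and Mcm7 (-1.69), against 24.3% of all genes. The count changed with the liver left out, WT mouse 4 or 5 or KO mouse 7, and each such fit had 1 liver in that arm. The difference of the 48 h against 40 h changes was called for 14 of 26, all with a lower change in KO, and this count ran from 0 to 24 over the 8 fits that left out 1 library, with 0 without WT mouse 2 and 24 without WT mouse 4. The share of all genes called moved the same way, from 4.72% to 0.191% and 21.9%.

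Of the 18 MYC targets, 3 were higher after PHx in WT and none lower, against 20.1% of all genes, namely Odc1, an enzyme of polyamine synthesis (log2 1.07), Nop56, a factor of ribosomal RNA modification (0.88), and Ldha, lactate dehydrogenase (1.15). Library size alone gave 10, and 29.9% of all genes. In KO, 11 of 18 were higher and none lower, against 29.5% of all genes (median log2 0.73, against 0.10 over all genes), including Nop58 (1.70), Odc1 (1.51), Nop56 (1.44) and Nop2 (1.42). The difference between the genotypes was called for none of the 18.

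Among 9 genes of the RB and E2F families beside the members, 4 were called after PHx in WT, against 20.1% of all genes. Of these, 3 were higher, E2f3 (log2 0.99), Rbl1, which encodes p107 (2.51), and Tfdp1, a dimer partner of E2F (0.86), and Rbl2 was lower (-0.79). The number of calls was 2 without WT baseline replicate 3, 4 or 5 or the 30 h liver, and 1 with the mouse as a block. In KO, E2f3 alone was called (log2 1.05), against 29.5% of all genes. Of 10 genes of the MYC and MAX network, Mxd3 was higher (5.70) and Mxd4 lower (-1.01) after PHx in WT, against 20.1% of all genes. Mxd3 averaged only 0.0513 CPM in WT at baseline. In KO, Mxd1, which competes with MYC for MAX, and Max were higher (2.57 and 0.80) and Mxd4 lower (-1.09), against 29.5% of all genes. Between genotypes, Mlx was lower in KO at baseline (-0.535, adjusted p = 0.0187), against 16% of all genes. After PHx, Mxd1 was higher in KO (3.23, adjusted p = 0.00119) and Mlx lower (-0.46, adjusted p = 0.0297), against 24.2%. Of 7 genes of the kinase module, Ccna2, cyclin A2, alone was called between genotypes at baseline, against 16% of all genes. It was higher in KO (mean 0.281 CPM in WT and 9.20 in KO; fold change 32; adjusted p = 0.038), a call lost in 9 of 10 fits that left out a library. After PHx in WT, Ccna2 (fold change 124, adjusted p = 0.00758) and Cdk1, the mitotic kinase (47.7, adjusted p = 0.00826), were higher in each of 10 such fits, but not with the mouse as a block (adjusted p = 0.198 and 0.351). No other gene of the 7 was called there, against 20.1% of all genes. Cdc25a, a phosphatase that activates CDK2, was higher after PHx in KO (fold change 4.5, adjusted p = 0.00111), as was Mnat1 (1.76), while Ccnh was lower. The share of all genes called in this comparison was 29.5%. Leaving out a library lost the Mnat1 call in 1 of 10 fits and the Ccnh call in 4. With the mouse as a block, Mnat1 and Ccnh were not called (adjusted p = 0.0557 and 0.0522), and Cdc25a was (0.00322). Between genotypes after PHx, Cdc25a (log2 1.82; adjusted p = 0.00163) and Mnat1 (0.69; 0.0376) were higher in KO, against 24.2% of all genes called. The Mnat1 call was lost in 7 of 10 fits that left out a library, at adjusted p up to 0.113, and the Cdc25a call was kept in each. Of 8 genes linked to the degradation of G1 regulators, Fzr1 was higher (0.66) and Skp1, listed as Skp1a, lower (-0.49) in KO than in WT after PHx. That is near the 24.2% of all genes called in this comparison. Calls for these small groups changed by at most 3 genes when single libraries were left out.

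Levels over all 4 groups followed different orders among the members. Ccnd1 was lowest in WT at baseline (mean 22.9 CPM), followed by WT after PHx (135), KO after PHx (189) and KO at baseline (216), and each neighbour in that order overlapped the next. For Ccnd2 the order ran from WT after PHx (6.13) through WT baseline (8.54) and KO baseline (26.4) to KO after PHx (28.1), and only the step from WT to KO at baseline had no overlap. Ccne1 ran through WT baseline (0.371), KO baseline (0.795), WT after PHx (11.1) and KO after PHx (21.5), with no overlap between KO baseline and WT after PHx. E2f1 averaged 3.06, 5.16, 10.1 and 16.1 CPM in WT baseline, KO baseline, KO after PHx and WT after PHx, and Myc averaged 5.08, 21.03, 23.5 and 34.7 CPM in WT baseline, WT after PHx, KO baseline and KO after PHx. Neighbouring groups of Ccnd3, Cdk4, Cdk6 and Rb1 overlapped throughout. The coefficient of variation of Ccnd1 was 0.196 in WT and 0.370 in KO at baseline, and 0.861 and 1.02 after PHx. That of Rb1 stayed between 0.187 and 0.291 in all 4 groups.

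The genes most alike each of 4 members were taken as those with the smallest root mean square difference of centred log2(CPM + 1) over the 20 libraries, among 12546 genes. For E2f1 they were 2810408I11Rik (0.40), Prim1, a primase subunit (0.51), and Pole, a DNA polymerase subunit (0.56). For Ccne1 they were Rrm2 (0.73), Chaf1b, a histone chaperone subunit (0.75), and Rad18, a ubiquitin ligase of DNA damage tolerance (0.79). For Myc they were Rnf144a (0.64), Cd93, a receptor of endothelial and myeloid cells (0.66), and Cd300lf, a receptor of myeloid cells (0.68), and the last averaged 0.458 CPM in WT at baseline and 6.08 in KO after PHx. For Ccnd1 the nearest were Atp2b2, a calcium pump (0.86), Flvcr2 (0.96) and Lect2, a hepatocyte-secreted protein (1.01). All values share the same 20 libraries, and the difference was not scaled to a gene's spread around its own mean. That spread was 1.71 for Ccnd1, 1.73 for Ccne1, 1.37 for E2f1 and 1.27 for Myc. Without such scaling, Ccnd1 had the least close neighbours of the 4.

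Reads of several members could be shared with a gene on the other strand, since the strand setting of the counting is not given in the sources used here. Exons of Ccnd1 overlap LTO1, those of Ccnd3 overlap Bysl, those of Ccne2 overlap Ints8, those of Cdk4 overlap Tspan31, and those of Rb1 overlap Lpar6 and Rcbtb2, all on the opposite strand. Over the 20 libraries Tspan31 had 128301 counts and Cdk4 18421, and Ints8 had 8983 and Ccne2 1638. How many of the counts of Ccnd1, Ccnd3, Ccne2, Cdk4 and Rb1 came from these partners was not measured.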

How the data were processed

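Whole-liver polyA RNA of 20 samples was sequenced in paired ends on a NovaSeq 6000 from TruSeq libraries, per the labels' protocols. The authors deposited whole-number counts per Ensembl identifier for each sample. Per the series' design text, reads were trimmed with fastp 0.20.0 and aligned to mm10, and uniquely mapped reads were counted. The submitters' processing notes name Trimmomatic 0.36 instead, with FastQC 0.11.5. The aligner, counter, annotation and strand setting are not given in the sources used here. Of 46603 identifiers, 46091 matched GENCODE M21, and 21018 had no count.

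Counts were fitted in edgeR 4.0.16 (R 4.3.3, limma 3.58.1) with TMM scaling, filterByExpr (14661 genes) and the quasi-likelihood test, over 4 groups of genotype and stage, and over genotype and time for the comparisons at 40 h and 48 h. P-values were adjusted by Benjamini-Hochberg over all genes tested. SE is the log2 fold change over the square root of F. The fit was also run on simulated counts. These had the same spread per gene in all groups, so they did not test the wider spread between livers after PHx. The members and gene lists were chosen with earlier results of these data known, and the test of the difference between 48 h against 40 h changes was added after seeing the data. All 10 members are named, with the called genes of largest change in each list. Alternatives were DESeq2 1.42.0, library size alone, no filter, only the samples compared, each library left out, and the mouse as a block. The labels give 9 mice a number in both samples. Residuals of samples of the same mouse correlated at 0.0159 to 0.0777 in WT and -0.0549 to 0.152 in KO, and those of different mice at -0.0696 to 0.0745 and -0.234 to 0.259.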

Additional observations from a re-analysis of the deposited data

Results flagged for a closer look

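Among 40 groups of 5 libraries (10 members in 4 groups), 6 had a sample whose gap to its nearest neighbour was over 0.71 of the group's range, Dixon's limit for 5 samples, which chance passes in about 1 of 20 groups. In WT after PHx, the liver of mouse 1 at 30 h stood apart for 3 members, Ccnd3 at 63.4 CPM, Ccne1 at 34 CPM and Ccne2 at 25.6 CPM. It was also the highest library in E2f1. In KO after PHx, the liver of mouse 10 at 40 h stood apart for Ccnd3 at 86.5 CPM, and it held the highest level of Ccnd1, Ccnd2, Ccne1, Ccne2, Cdk4 and E2f1 in that group as well. At baseline in KO, mouse 8 stood low for Cdk4 at 25.1 CPM and mouse 10 stood low for E2f1 at 4.10 CPM, the latter still above every WT liver.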

How the results depend on the processing

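Ccnd1 in KO against WT at baseline, Ccnd2 in KO against WT after PHx and Ccne1 in the response to PHx in each genotype kept their direction and their call under every alternative run for them. Calls for Ccnd2 and Myc at baseline, and for Ccne2, Ccnd1, Myc and Cdk6 after PHx, were each lost when some single library was left out, with the values given above. The main limits are the spread between livers after PHx, which also widens the shared error of baseline comparisons, 2 livers per genotype at 40 h and at 48 h and 1 at 30 h, and low counts of Ccne1 and Ccne2 at baseline. Library size alone in place of TMM moved the median log2 fold change of all genes from -0.03 to 0.45 between genotypes at baseline, from 0.04 to 0.40 for PHx in WT and from 0.10 to 0.37 in KO. It changed the split of genes called at baseline from 1631 higher and 717 lower to 3521 and 113. For KO against WT after PHx, the split changed from 2342 and 1202 to 3897 and 296. For PHx it changed from 1677 and 1273 to 3796 and 582 in WT, and from 2561 and 1770 to 4059 and 961 in KO. The mouse as a block changed no member's call outside the WT response to PHx, and was not run for KO against WT, where no mouse is in both groups. Among single members' results over all alternatives, 1068 kept direction and call, 53 lost a call, 56 gained one and 103 changed sign. With library size alone, the number of members called was 5 for KO against WT at 40 h, 2 for KO against WT at 48 h and 1 for 48 h against 40 h in KO. The shares of all genes called there were 21.2%, 24.5% and 8.14%. The sign of the log2 value changed for Rb1 (0.25) in KO against WT at baseline, Cdk4 (0.16) and Rb1 (0.19) in KO against WT after PHx, Cdk6 (0.027) and Ccnd1 (0.044) in the KO response to PHx, Rb1 (-0.055) and Ccnd3 (-0.002) in the difference of PHx responses, Rb1 (0.46) and Cdk6 (0.15) in KO against WT at 40 h, Cdk4 (0.20), Rb1 (0.42) and Ccnd3 (0.33) in KO against WT at 48 h, Ccnd1 (0.009) in 48 h against 40 h in WT and Rb1 (-0.045) in the difference of 48 h against 40 h changes. With DESeq2, the number of members called was 5 for KO against WT at 40 h, 2 for KO against WT at 48 h, 5 for 48 h against 40 h in KO and 3 for the difference of 48 h against 40 h changes. The shares of all genes called there were 20.6%, 30.9%, 21.6% and 12.4%. Signs changed for Rb1 (-0.012) in the difference of 48 h against 40 h changes. With no filter on low counts, the number of members called was 2 for KO against WT at 48 h, 5 for 48 h against 40 h in KO and 3 for the difference of 48 h against 40 h changes. The shares of all genes called there were 14.7%, 8.63% and 4.83%. The log2 sign turned for Rb1 (-0.064) in the difference of PHx responses and Rb1 (-0.078) in the difference of 48 h against 40 h changes. With the compared samples alone, the number of members called was 5 for KO against WT at baseline, against 39.3% of all genes. With the mouse as a block, the number of members called was 1 for the WT response to PHx, against 13.5% of all genes. The log2 value changed sign for E2f1 (-0.25) in the WT response to PHx, Ccnd2 (-0.17) and E2f1 (-0.54) in the KO response to PHx and Ccne1 (0.55) and Ccne2 (0.99) in the difference of PHx responses. With the same 18 samples and no mouse term, chosen after seeing the data, the number of members called was 2 for the WT response to PHx, against 16.5% of all genes. Signs turned for Ccne1 (0.74), Rb1 (-0.009) and Ccne2 (0.66) in the difference of PHx responses. Without both 30 h libraries, chosen after seeing the data, the number of members called was 2 for KO against WT after PHx and 3 for the WT response to PHx. The shares of all genes called there were 21.7% and 23.1%. The log2 value took the other sign for Cdk4 (0.032), E2f1 (0.99) and Ccne2 (1.10) in KO against WT after PHx, Rb1 (-0.058) in the WT response to PHx and Ccne1 (0.86), Cdk4 (0.006), E2f1 (0.23) and Ccne2 (0.79) in the difference of PHx responses. With 1 library left out at a time, the number of members called ran from 1 to 3 for KO against WT at baseline, 1 to 2 for KO against WT after PHx, 2 to 6 for the WT response to PHx, 1 to 2 for the KO response to PHx, 0 to 1 for the difference of PHx responses, 1 to 3 for KO against WT at 40 h, 0 to 4 for KO against WT at 48 h, 0 to 1 for 48 h against 40 h in WT, 0 to 5 for 48 h against 40 h in KO and 0 to 5 for the difference of 48 h against 40 h changes. In these fits, the share of all genes called ran from 11.2% to 15.1% for KO against WT at baseline and 18.9% to 34.1% after PHx. It ran from 15% to 20.9% for the WT response to PHx, 19.9% to 40.5% for the KO response and 0.15% to 4.86% for their difference. At 40 h and 48 h each such fit has a single liver in an arm, so its count rests on that liver. The ranges that follow are of log2 values, for members whose sign changed in at least 1 fit that left out a library. None of these was called in the full fit, and 1 was called with the other sign, Ccnd1 between genotypes at 48 h without WT mouse 5. In KO against WT at baseline, the range was Cdk4 -0.003 to 0.092, Ccne2 -0.18 to 0.54 and Ccnd3 -0.066 to 0.17. In KO against WT after PHx, the range was E2f1 -1.82 to 0.69, Ccne2 -1.30 to 0.92, Ccnd3 -0.25 to 0.37 and Ccnd1 -0.31 to 1.00. In the WT response to PHx, the range was Rb1 -0.071 to 0.13. In the KO response to PHx, the range was Ccnd2 -0.27 to 0.33, Rb1 -0.079 to 0.15, E2f1 -0.19 to 1.28 and Ccnd1 -0.98 to 0.071. In the difference of PHx responses, the range was Ccne1 -0.57 to 0.88, Rb1 -0.12 to 0.14, Ccne2 -1.61 to 0.61 and Ccnd3 -0.28 to 0.34. In KO against WT at 40 h, the range was Cdk4 -0.15 to 0.61 and Rb1 -0.30 to 0.23. In KO against WT at 48 h, the range was Rb1 -0.30 to 0.038, Myc -0.005 to 3.35, E2f1 -3.58 to 0.98, Ccne2 -1.48 to 1.11 and Ccnd1 -1.93 to 3.43. In 48 h against 40 h in WT, the range was Ccnd2 -0.11 to 1.24, Ccne1 -0.48 to 0.42, Rb1 -0.40 to 0.13, Myc -2.18 to 1.17, E2f1 -2.46 to 5.02, Ccne2 -0.19 to 2.40, Cdk6 -0.44 to 0.025 and Ccnd1 -4.53 to 1.07. In 48 h against 40 h in KO, the range was Cdk4 -0.70 to 0.14. In the difference of 48 h against 40 h changes, the range was Rb1 -0.26 to 0.27 and Ccnd1 -3.99 to 1.51.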
